A study of Homo sapiens with 6 samples.

Results

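The S100 calcium-binding proteins of epithelial cells are described here in PC-3 cells, an established line from a bone metastasis of a human prostate carcinoma. The group holds 10 genes, S100A2, S100A3, S100A4, S100A6, S100A10, S100A11, S100A13, S100A14, S100A16 and S100P, found by gene name among the 57396 genes of the deposited count table. Messenger RNA had been sequenced from PC-3 cells given S-adenosylmethionine (SAM, the methyl donor of the cell) at 160 micromolar for 5 days and from cells given PBS for the same 5 days. Each group held 3 libraries. The comparison asks which transcripts differ after exposure to a methyl donor. The labels do not say whether the libraries of a group came from separate cultures. The p-values therefore set a difference only against the scatter of these libraries, and that scatter may be technical. In such bulk samples, fewer cells with a transcript and less RNA per cell cannot be told apart.

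S100 proteins are small calcium sensors with paired EF-hand loops. Most work as dimers that expose a binding surface when calcium rises and then hold annexins, cytoskeletal proteins or other partners, and several are also released from cells. Nearly all of their genes lie in a cluster on the long arm of chromosome 1, inside the epidermal differentiation complex, among genes for envelope proteins of stratified epithelia. S100P lies by itself on chromosome 4. In carcinomas S100 proteins are known as markers of epithelial differentiation, motility and invasion.

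S100P was the member that changed with SAM. Its level fell from 21.8 ± 2.52 to 10.8 ± 1.18 CPM (the count of a gene relative to its library total, with TMM scaling, which corrects for library composition, given as mean ± SD, n = 3), which is 2.02-fold lower. The other 9 members did not pass the test, which was edgeR's quasi-likelihood test with a Benjamini-Hochberg adjusted p under 0.05 over all tested genes. All 10 members were tested, and 0 were called higher and 1 lower, where 5.24% of all 15312 tested genes were called lower and 5.19% higher. The share of members called, 1 of 10, was therefore near the 10.4% of all tested genes called in either direction. At an unadjusted p under 0.05, 2 of 10 members passed, S100P and S100A2, beside 4678 of all 15312 tested genes. The fitted difference was above 0 in 8 members and below 0 in S100P and S100A4, with a median log2 fold change of 0.20, against -0.01 over all tested genes, of which 7517 lay above 0. Over all tested genes 795 were higher and 803 lower, and with library totals as the only scaling the numbers were 608 and 961, while the member counts stayed at 0 and 1.

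**Figure D1:**
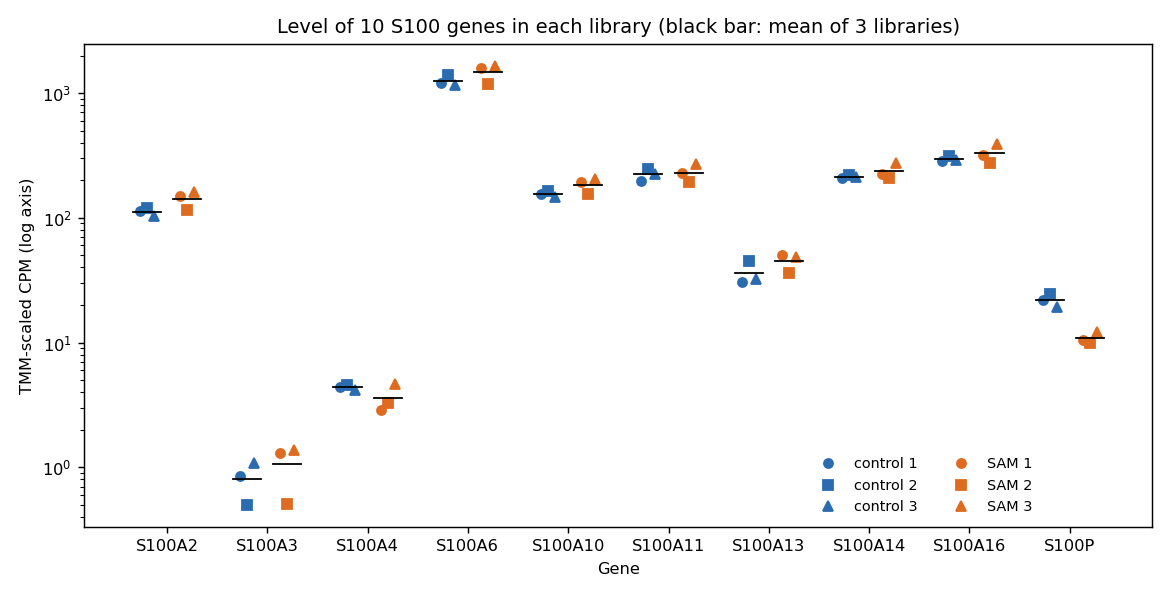
TMM-scaled CPM on a log axis (vertical) of the 10 S100 genes (horizontal) in each library, with controls in blue, SAM in orange, 1 symbol per replicate number and a black bar for the mean of 3 libraries. S100P is the gene whose SAM libraries (9.90 to 12.1 CPM) all lie apart from its controls (19.3 to 24.3 CPM).

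The libraries held between 9379258 counts (control 1) and 28995160 counts (SAM 1), so a floor of 3 counts stood between 0.103 and 0.320 CPM. Control 1 and SAM 2 deviated from their group means in the same way across tested genes (Pearson r = 0.53 across genes, which are not independent replicates), while the other pairs of a control and a SAM library ranged from -0.47 to 0.35. Control 1 and SAM 2 also had the lowest totals, 9379258 and 12020601 counts, where the other libraries held 15467639 or more. Whether depth bears on their deviation was not tested. Results that rest on control 1 and SAM 2 are given with and without them. The label was checked against markers. The epithelial genes KRT8, KRT18 and EPCAM averaged 876, 1062 and 420.2 CPM in controls. Of 12 listed PC-3 and prostate epithelial markers, 10 were tested, of which 1 rose, 1 fell and 8 did not pass. Over all tested genes 10.4% were called. VIM rose (log2 fold change 0.52, edgeR adjusted p = 0.0252) and TMPRSS2 fell (-0.63, 0.0493), calls lost in 8 and 12 of 22 alternatives. KLK3, which encodes the prostate-specific antigen, had 0 CPM in every library, and the basal keratins KRT5 and KRT14 averaged 0.307 and 0.0466 CPM in controls and 0.722 and 0.0794 CPM with SAM, too low to pass the filter. In KRT5 all SAM libraries lay above all controls. The other basal marker listed, TP63, was expressed and was called lower with SAM (log2 fold change -1.02), as given below. Summed over all 3, the basal markers ranged from 53.3 to 59.1 CPM in controls and from 23.8 to 37.2 CPM with SAM. Summed endothelial markers reached at most 0.734 CPM in controls and 0.660 CPM with SAM. Of the fibroblast markers COL1A1 was the one tested, at 17.7 ± 1.02 CPM in controls and 16.8 ± 0.181 CPM with SAM.

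S100P (ENSG00000163993, GRCh38 chromosome 4, positions 6693069 to 6697170, plus strand, 2 exons in its canonical transcript) encodes a calcium sensor first found in placenta that binds the membrane linker ezrin and the scaffold IQGAP1. It stood at 21.8, 24.3 and 19.3 CPM in control 1, 2 and 3, and at 10.4, 9.90 and 12.1 CPM in SAM 1, 2 and 3. The lowest control lay well above the highest SAM library, and the libraries within a group differed little. Of all 10 members S100P was the only one whose groups did not overlap, while 36.7% of all tested genes had groups apart, 18.8% lower and 17.9% higher. The log2 fold change was -1.01 (SE 0.13, 95% interval -1.31 to -0.72, edgeR adjusted p = 0.00359). In raw counts, 203, 536 and 394 reads were assigned in controls and 302, 117 and 184 in SAM libraries, so counting error was small beside the difference. S100P took 0.00197 to 0.00246% of all gene counts in controls and 0.000973 to 0.00119% with SAM, and the 95% Wilson intervals, which cover counting error only, ended at 0.00179% on the low side of controls and at 0.00137% on the high side of SAM.

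The fall of S100P kept its call in each of 22 alternative settings, with log2 fold changes from -1.10 to -0.92 and adjusted p of at most 0.0363, reached without SAM 1. Between the libraries that deviated together, S100P was 0.454 times as high in SAM 2 as in control 1, and in the other 4 libraries it averaged 11.3 CPM with SAM and 21.8 CPM in controls. The difference thus had the same direction and a like size in both sets. Among its partners, EZR, which encodes ezrin, had a control mean of 330.4 CPM and a SAM mean of 303.6 CPM (log2 fold change -0.12, 95% interval -0.33 to 0.08). IQGAP1 stood at 452.4 to 502 CPM in controls and 258 to 437 CPM with SAM (log2 fold change -0.44, edgeR adjusted p = 0.108), so its groups did not overlap but it did not pass. S100PBP, a nuclear protein that binds S100P, had a log2 fold change of -0.08 (95% interval -0.35 to 0.18). Within 250000 bases of S100P on chromosome 4, 8 other genes were tested and did not pass (smallest edgeR adjusted p = 0.110). Their log2 fold changes ran from -0.36 to 0.22, with 4 above 0 and 4 below, among them KIAA0232 at -0.36 and MRFAP1 at 0.22.

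The 250 bases before the RefSeq start of S100P (GRCh38.p14, chr4:6693628-6693877, plus strand) are printed because it is the member that changed. They lie inside the deposited span of the gene given above, which begins further upstream. They are shown 5′ to 3′ in lower case, with capitals for the TATA box letters TATAAA, 28 to 23 bases before the start.
S100P: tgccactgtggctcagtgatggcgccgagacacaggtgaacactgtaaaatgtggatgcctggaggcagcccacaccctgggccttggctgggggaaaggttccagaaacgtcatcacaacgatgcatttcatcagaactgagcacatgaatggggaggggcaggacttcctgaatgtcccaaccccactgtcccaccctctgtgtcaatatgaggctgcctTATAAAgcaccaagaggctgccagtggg
TATAAA on either strand is in 10.7% of 35116 RefSeq windows of this length. The window holds 4 CpG dinucleotides, the sites where a methyl donor is used by DNA methyltransferases, against a median of 11 over all windows, and 29.3% of windows hold fewer. Methylation of these sites was not analysed here.

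**Figure D2:**
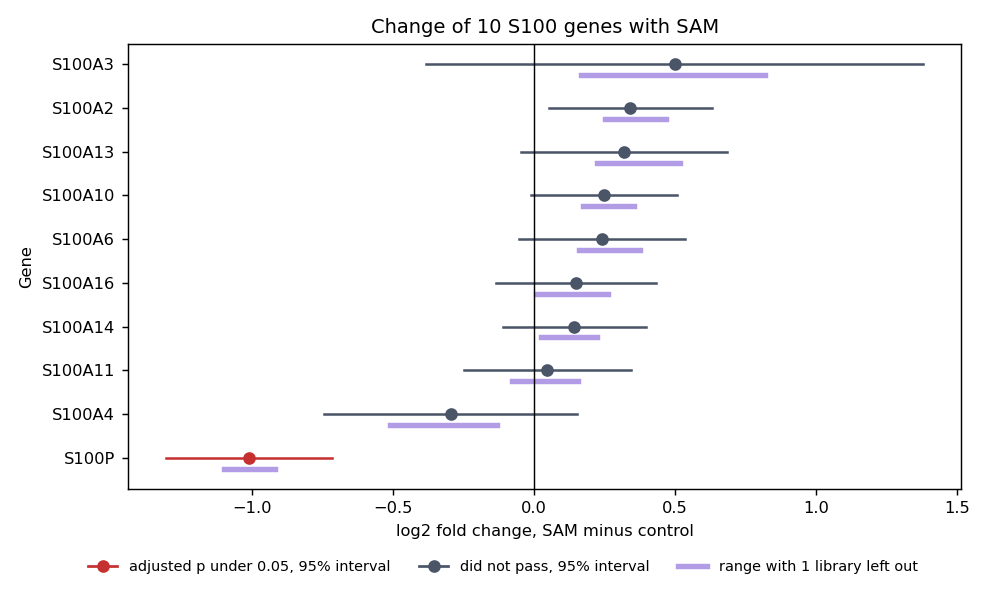
Log2 fold change, SAM minus control (horizontal axis), of the 10 S100 genes (vertical axis), with the 95% interval as a line, red where the adjusted p was under 0.05, and in violet the range when 1 library was left out. S100P lies at -1.01 with an interval that ends at -0.72, and the points of the other members lie between -0.30 and 0.50. Besides S100P, the interval of S100A2, which starts at 0.05, is the one that leaves out 0.

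S100A2, S100A6 and S100A10 were not called in the main fit but were called when a single library, SAM 2, was left out. S100A2 (ENSG00000196754, chromosome 1, positions 153561108 to 153567890) encodes a mainly nuclear S100 protein of basal epithelial cells. It stood at 114, 119 and 103 CPM in control 1, 2 and 3, and at 149, 116 and 161 CPM in SAM 1, 2 and 3. SAM 1 and SAM 3 lay above all controls, and SAM 2 lay among them. The log2 fold change was 0.34 (SE 0.13, 95% interval 0.05 to 0.63, edgeR adjusted p = 0.111). TP63, which encodes p63, a known regulator of S100A2 in basal epithelium, fell from 55.7 ± 3.05 to 27.6 ± 7.56 CPM (log2 fold change -1.02, edgeR adjusted p = 0.00773). The call of TP63 was lost without control 3 or SAM 1 (adjusted p up to 0.0638).

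S100A6 (ENSG00000197956, chromosome 1, positions 153534599 to 153536244) encodes calcyclin, a growth-associated S100 protein that binds the ubiquitin adaptor CACYBP. Its CPM was 1210, 1384 and 1163 in control 1, 2 and 3, and 1601, 1189 and 1650.0 in SAM 1, 2 and 3. Again SAM 2 lay within the control range and the other SAM libraries above it (log2 fold change 0.24, SE 0.13, 95% interval -0.05 to 0.53, edgeR adjusted p = 0.240). The level of CACYBP was 89.0 ± 0.935 CPM in the control group and 109 ± 13.8 CPM after SAM, and SAM 2 at 92.9 CPM lay nearest to the controls (log2 fold change 0.29, edgeR adjusted p = 0.114).

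S100A10 (ENSG00000197747, chromosome 1, positions 151982915 to 151994390) encodes p11, an S100 protein that has lost calcium binding and forms a tetramer with annexin A2 at the plasma membrane, where plasminogen is activated. Its CPM was 156, 164 and 146 in control 1, 2 and 3, and 193, 156 and 205 in SAM 1, 2 and 3. The pattern over libraries was that of S100A2 and S100A6 (log2 fold change 0.25, SE 0.12, 95% interval -0.01 to 0.51, edgeR adjusted p = 0.180).

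Without SAM 2, all of S100A2, S100A6 and S100A10 were called higher, with log2 fold changes of 0.47, 0.38 and 0.35 (edgeR adjusted p = 0.0118, 0.0315 and 0.0262), in a fit where 20.3% of tested genes were called. Without SAM 2 and control 1 together, none of these 3 genes was called (edgeR adjusted p = 0.0542, 0.133 and 0.0986), with log2 fold changes of 0.48, 0.36 and 0.37. Between SAM 2 and control 1 the ratios were 1.02, 0.983 and 0.999, while in the other 4 libraries the SAM mean exceeded the control mean by 0.48, 0.35 and 0.36 on the log2 scale. Whether the difference itself depends on the library set was not tested. A term for these libraries in the fit left the genes uncalled (adjusted p = 0.0680, 0.182 and 0.127). After correction of each library for its trend on transcript length and GC content, log2 fold changes were 0.26, 0.14 and 0.20. All 10 members are shorter than the median of tested genes, with deposited transcript lengths of 573 to 1279 bases against 2234. S100A2 alone was also called when no filter on low counts was set (edgeR adjusted p = 0.0330), where 8.88% of 30874 genes were called.

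**Figure D3:**
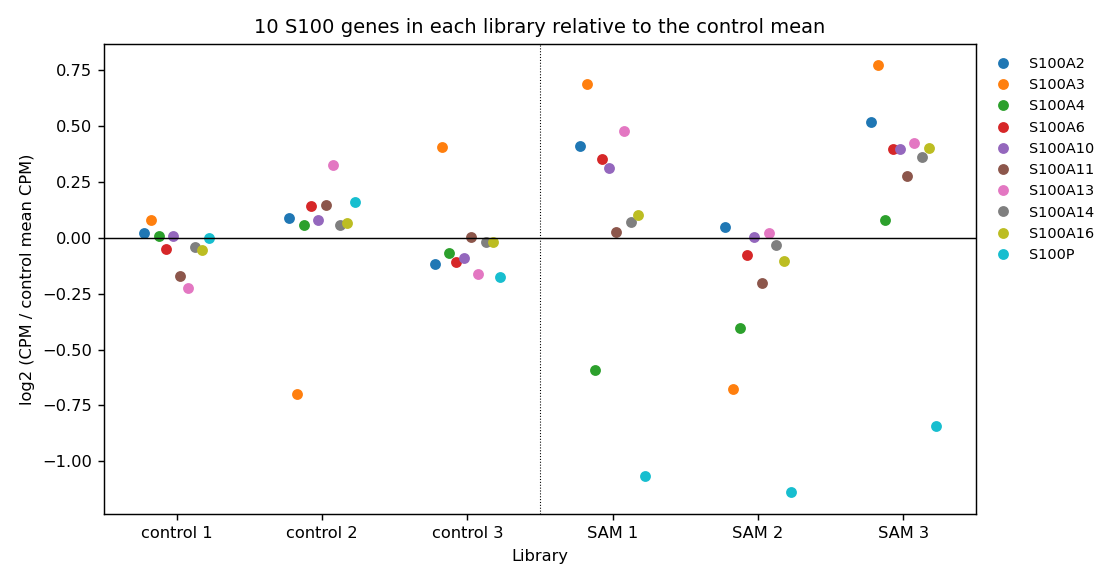
Log2 ratio of CPM to the control mean (vertical axis) in each library (horizontal axis), with 1 colour per S100 gene and a dotted line between controls and SAM libraries. In SAM 1 and SAM 3, S100A2, S100A6 and S100A10 lie above the control mean and in SAM 2 near it, while S100P lies far below it in all SAM libraries.

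The pattern over the libraries was not particular to S100A2, S100A6 and S100A10. In S100A3, S100A13, S100A14 and S100A16 too, SAM 1 and SAM 3 lay above all controls and the remaining SAM library did not. The upstream windows of S100A2, S100A6 and S100A10, whose call turned on a single library, are printed for comparison with S100P. Each is the 250 bases before a RefSeq start in GRCh38.p14, minus strand, 5′ to 3′, at chr1:153565845-153566094 for S100A2, chr1:153535992-153536241 for S100A6 and chr1:151993860-151994109 for S100A10. These windows too lie inside the gene spans given above. Capitals mark TGACTCA, the AP-1 letters, in S100A2 and GGGCGG, the GC box letters, in the others, and in S100A6 a pair of GC boxes overlaps.
S100A2: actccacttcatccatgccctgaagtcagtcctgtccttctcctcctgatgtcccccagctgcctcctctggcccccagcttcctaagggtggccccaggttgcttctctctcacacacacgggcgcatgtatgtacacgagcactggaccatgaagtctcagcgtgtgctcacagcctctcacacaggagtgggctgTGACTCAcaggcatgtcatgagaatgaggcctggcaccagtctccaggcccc
S100A6: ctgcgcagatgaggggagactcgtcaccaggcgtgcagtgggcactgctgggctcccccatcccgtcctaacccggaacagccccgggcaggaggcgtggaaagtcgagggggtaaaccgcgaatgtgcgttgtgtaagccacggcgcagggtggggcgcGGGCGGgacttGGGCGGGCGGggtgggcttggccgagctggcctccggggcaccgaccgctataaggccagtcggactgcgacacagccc
S100A10: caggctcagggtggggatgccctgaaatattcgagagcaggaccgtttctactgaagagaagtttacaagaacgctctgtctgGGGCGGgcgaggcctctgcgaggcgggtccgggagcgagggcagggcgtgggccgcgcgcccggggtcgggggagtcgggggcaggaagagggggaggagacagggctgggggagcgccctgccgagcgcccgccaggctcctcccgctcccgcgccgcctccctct
TGACTCA on either strand is in 4.20% of the 35116 windows and GGGCGG in 42.6%. The windows of S100A6 and S100A10 hold 24 CpG dinucleotides each and that of S100A2 holds 4. S100A2 has a further RefSeq start (chr1:153563888-153564137), whose window holds 3 CpG dinucleotides and none of the motif letters searched. All 10 members have at least 1 RefSeq window, and over all of these the CpG number ran from 1, at a start of S100A16, to 24. TATAAA was found also before S100A4 and before 1 of the starts of S100A13, and TGACTCA also before S100A3. GGGCGG was found also before S100A3 and S100A11 and before 1 of the starts of S100A13 and of S100A16. CCAAT, the letters of the CCAAT box, which 32.0% of windows hold, was found before S100A3, S100A13 and S100A16 and in none of the windows printed here. These matches are letters in a window and say nothing of binding.

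The partner of S100A10, ANXA2, rose from 1698 ± 58.5 to 2230 ± 148 CPM (log2 fold change 0.39, SE 0.09, edgeR adjusted p = 0.0224). All SAM libraries, SAM 2 included at 2071 CPM, lay above the highest control at 1759 CPM. Leaving out control 1, 2 or 3 or SAM 1 ended the call (highest adjusted p = 0.134), with log2 fold changes of 0.37 to 0.42. Those fits called 0.909 to 1.61% of all tested genes, beside 10.4% in the main fit. The call of ANXA2 also ended when control 1 and SAM 2 were left out together or the replicate number was added as a block. The count ratio of S100A10 to ANXA2 within a library was 9.23, 9.34 and 8.90% in control 1, 2 and 3 and 8.57, 7.54 and 8.66% in SAM 1, 2 and 3. Every SAM library lay below every control in this ratio, which needs no scaling between libraries. The mean log2 difference was -0.15, with an exact permutation p = 0.1, two-sided, the smallest that 3 against 3 libraries can give, and 0.2 when adjusted over the 2 ratios computed. Without SAM 2 the difference was -0.09. AHNAK, a giant scaffold that binds the annexin A2 and S100A10 complex, ranged from 887 to 1712 CPM in SAM libraries and from 1434 to 1703 CPM in controls, so the groups overlapped (log2 fold change -0.31, edgeR adjusted p = 0.327).

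S100A11, S100A14 and S100A16 were abundant and did not pass. S100A11 (ENSG00000163191, chromosome 1, positions 152032506 to 152047907), a partner of annexin A1, stood at 199, 247 and 224 CPM in control 1, 2 and 3, and at 227, 194 and 270.2 CPM in SAM 1, 2 and 3. The highest and the lowest value were both SAM libraries. Its log2 fold change was 0.05 (95% interval -0.25 to 0.34), and its sign changed without control 1 (-0.03) or SAM 3 (-0.08) and after the length and GC correction. ANXA1 had 333 ± 15.9 CPM in the control group and 345 ± 28.3 CPM after SAM (log2 fold change 0.05). The count ratio of S100A11 to ANXA1 was 66.9 ± 5.19% in controls and 66.8 ± 8.96% with SAM (SD, n = 3, exact permutation p = 1, two-sided), and the groups overlapped.

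S100A14 (ENSG00000189334, chromosome 1, positions 153614255 to 153616986), an S100 protein of epithelia, and its neighbour S100A16 (ENSG00000188643, positions 153606886 to 153613145), a widely expressed S100 protein, followed each other over the libraries. S100A14 stood at 208, 222 and 211 CPM in control 1, 2 and 3, and at 225, 209 and 274 CPM in SAM 1, 2 and 3. S100A16 stood at 286, 310.2 and 293 CPM in control 1, 2 and 3, and at 318, 275 and 392 CPM in SAM 1, 2 and 3. In both, SAM 3 was far the highest library and SAM 2 was at or near the lowest. Their log2 fold changes were 0.14 (95% interval -0.11 to 0.40) and 0.15 (95% interval -0.13 to 0.43). Without SAM 3 these were 0.03 and 0.01, and after the length and GC correction 0.06 and 0.05.

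S100A13 (ENSG00000189171, chromosome 1, positions 153618787 to 153634092), which takes part in the release of FGF1 and interleukin 1 alpha, cargoes without a signal peptide, stood at 30.7, 44.9 and 32.0 CPM in control 1, 2 and 3, and at 50.0, 36.4 and 48.2 CPM in SAM 1, 2 and 3. Control 2 lay between the SAM libraries, so the groups overlapped. The log2 fold change was 0.32 (SE 0.16, 95% interval -0.05 to 0.68, edgeR adjusted p = 0.216). Without control 2 it was 0.52 (edgeR adjusted p = 0.105). Of its cargoes, FGF1 rose from 3.31 ± 0.0233 to 5.30 ± 0.246 CPM (log2 fold change 0.69, edgeR adjusted p = 0.0225), a call that leaving out control 1, 2 or 3 or SAM 1 ended (highest adjusted p = 0.122), as did the replicate block (0.0628) and leaving out control 1 and SAM 2 together (0.0663). IL1A had a log2 fold change of -0.02 and did not pass. SYT1, a synaptotagmin found with S100A13 and FGF1 in their release complex, fell from 4.68 ± 0.359 to 2.52 ± 0.683 CPM (log2 fold change -0.91, edgeR adjusted p = 0.0263). Leaving out control 1, 2 or 3 or SAM 1 ended that call (highest adjusted p = 0.139). The fits without 1 of these libraries called 0.909 to 1.61% of all tested genes. The call of SYT1 was kept with the replicate block (0.0398) and without control 1 and SAM 2 together (0.0356). S100A13 overlaps S100A1 and, over 111 bases, CHTOP, which both lie on the other strand, and the sources used here do not state if reads were counted by strand. Over the 6 libraries S100A13 held 4540 counts, S100A1 held 130 and CHTOP held 8424.

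S100A4 and S100A3 were the lowest members. S100A4 (ENSG00000196154, chromosome 1, positions 153543613 to 153550136), known as metastasin for its part in motility, stood at 4.40, 4.54 and 4.16 CPM in control 1, 2 and 3, and at 2.89, 3.30 and 4.62 CPM in SAM 1, 2 and 3. SAM 3 was the highest library of all 6 and the other SAM libraries the lowest. The log2 fold change was -0.30 (SE 0.20, 95% interval -0.74 to 0.15, edgeR adjusted p = 0.341), and without SAM 3 it was -0.51 (edgeR adjusted p = 0.0689). Its partner MYH9, the heavy chain of non-muscle myosin IIA, had a control mean of 1121 CPM and a SAM mean of 1098 CPM (log2 fold change -0.03, 95% interval -0.30 to 0.24).

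S100A3 (ENSG00000188015, chromosome 1, positions 153547329 to 153549372), a cysteine-rich S100 protein of the hair cuticle, had 8, 11 and 22 counts in controls and 38, 6 and 21 in SAM libraries. These gave 0.858, 0.499 and 1.08 CPM in control 1, 2 and 3, and 1.31, 0.507 and 1.39 CPM in SAM 1, 2 and 3. The groups overlapped, and the interval of the log2 fold change, -0.38 to 1.38, was the widest among the members. It took in both no difference and a 2-fold rise. S100A3 lies inside the span of S100A4 on the same strand, which makes the division of reads between them uncertain.

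Levels of different genes were set side by side as CPM per kilobase of the canonical GENCODE transcript. S100A6 was the highest member by far, at 2885 CPM per kilobase in controls, 7.28 times the next member, S100A11, at 396. It made up 68.5% of the summed level of the members in controls, and 61.6% with the transcript lengths of the deposited table, a choice added after the data were seen. With those lengths S100A6 stood at 4.95 times the next member. S100A16, S100A10 and S100A14 followed at 253, 232 and 203 CPM per kilobase, and the ranges of neighbours in this order overlapped over the 6 libraries. With the deposited lengths S100A14 came before S100A10, and the ranges of S100A11 and S100A16, of S100A10 and S100A2, and of S100P and S100A4 overlapped too. S100A2 at 115, S100A13 at 75.2, S100P at 46.3, S100A4 at 8.51 and S100A3 at 1.09 CPM per kilobase came next, each with a range that did not overlap the one before it. In SAM libraries S100P averaged 23.0 CPM per kilobase, still above S100A4. Together the 10 members took 0.222, 0.255 and 0.224% of all gene counts in control 1, 2 and 3, and 0.278, 0.215 and 0.296% in SAM 1, 2 and 3, with SAM 2 the lowest library and SAM 1 and 3 the highest.

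**Figure D4:**
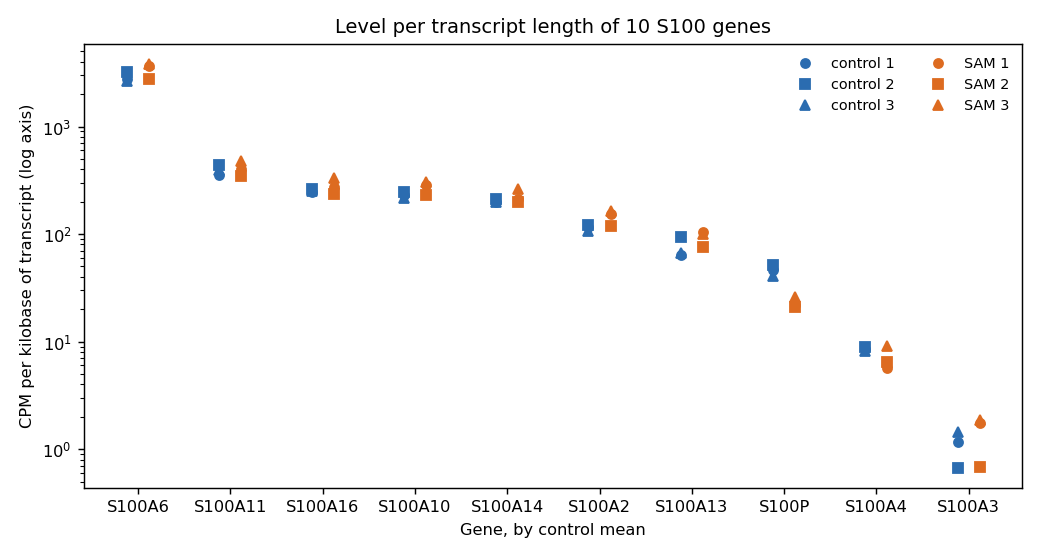
CPM per kilobase of canonical transcript on a log axis (vertical) of the 10 S100 genes, ordered by the control mean (horizontal), where blue marks controls, orange SAM and each symbol a replicate number. S100A6 averages 2885 in controls, and the SAM libraries of S100P lie apart from its controls.

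Of the 11 S100 genes outside this group, 3 passed the filter on low counts, S100A9, S100A1 and S100A5, and 4 had 0 counts in all libraries. S100A9 (ENSG00000163220, chromosome 1, positions 153357854 to 153361027), a subunit of calprotectin, the antimicrobial S100 complex of neutrophils and inflamed epithelia, rose from 88.7, 107 and 80.0 CPM in control 1, 2 and 3 to 188, 150 and 201 CPM in SAM 1, 2 and 3. All SAM libraries lay above all controls, with a log2 fold change of 0.97 (SE 0.14, edgeR adjusted p = 0.00587). Between SAM 2 and control 1 the ratio was 1.70, and in the other 4 libraries the log2 difference was 1.06. The call was kept in 21 of 22 alternatives and lost without control 3 (adjusted p = 0.0503), where 0.909% of all tested genes were called. S100A8, the other subunit of calprotectin, did not pass the filter and had at most 0.344 CPM in any library. Of 5 leukocyte markers, which would mark other cells that make S100A9, CD68 was the one tested. Its mean was 0.438 CPM in the control group and 1.21 CPM after SAM, and it passed (edgeR adjusted p = 0.0439), but in none of the fits with 1 library left out. The others, PTPRC and CD14 among them, stayed at or below 0.400 CPM on average in either group. Summed over all 5, the markers ranged from 0.783 to 1.32 CPM in the control libraries and from 1.65 to 1.78 CPM in the SAM libraries, and MS4A1 was at 0 in every library. The part of such cells in the level of S100A9 was not tested. S100A1, a muscle S100 protein, averaged 1.35 and 1.01 CPM in controls and with SAM, and S100A5 averaged 1.61 and 1.30 CPM, and neither passed (edgeR adjusted p = 0.270 and 0.409).

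Among annexins, the main binding partners of S100 proteins, 1 of 10 tested members rose, ANXA2, and none fell. This stood beside 10.4% of all tested genes called. The annexins had a median log2 fold change of 0.09. Of 27 listed partners and receptors of S100 proteins, 25 were tested, of which 3 rose, 1 fell and 21 did not pass, with a median log2 fold change of -0.03. That is 4 of 25, beside 10.4% of all tested genes. Those that changed and have not been described above were FKBP4 and STIP1, HSP90 cochaperones whose tetratricopeptide repeats bind S100 proteins. FKBP4 rose from 167 ± 3.50 to 233 ± 25.2 CPM (edgeR adjusted p = 0.0209) and STIP1 from 327 ± 31.4 to 436 ± 47.2 CPM (edgeR adjusted p = 0.0440). Leaving out control 1, 2 or 3 or SAM 1 ended both calls (highest adjusted p = 0.126 and 0.167). Those fits called 0.909 to 1.61% of all tested genes. The call of STIP1 was also lost with upper-quartile factors (0.0517), with the replicate block (0.0793) and with the block and the length and GC correction (0.0567). It was lost too without control 1 and SAM 2 together (0.0626). In these further settings the call of FKBP4 was kept.

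**Figure D5:**
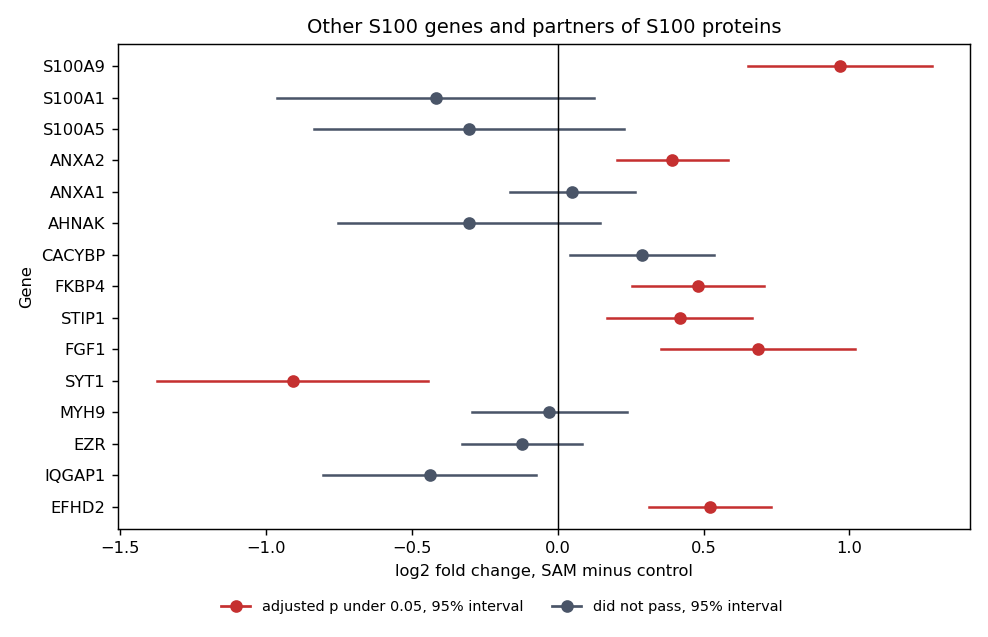
Log2 fold change, SAM minus control (horizontal axis), of other S100 genes and of partners of S100 proteins (vertical axis), with 95% intervals as lines, red where the adjusted p was under 0.05. S100A9 lies at 0.97 and SYT1 at -0.91, while ANXA1, MYH9 and EZR lie near 0.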

How the data were processed

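Of 2 tables the authors deposited, the first holds unnormalised gene counts with transcript lengths, and the other a signal, the same counts after division by 1 size factor per library. Tools named in the submitters' processing notes are STAR 2.4, HTSeq 0.6.1 and DESeq2 1.8, and named builds are mm10 and hg19, without roles. The deposited coordinates are on GRCh38, since 99.9% of identifiers shared with GENCODE release 44 overlap that gene. The paper's methods describe a different SAM dose and sequencer, and the labels were followed. Nothing was analysed here from its other arms.

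Counts were fitted in edgeR 4.0.16 (R 4.3.3, limma 3.58.1, DESeq2 1.42.0) with glmQLFit and glmQLFTest on treatment alone, after filterByExpr, which kept 15312 genes, and TMM scaling. Tests were two-sided. SEs were derived from the log2 fold change and the root of F, and intervals use the fit's degrees of freedom. The fit was tested on simulated counts. No libraries of a group agreed within sampling noise. Library shares carry 95% Wilson intervals, and low genes are least precise in control 1, since library totals differed 3.09-fold.

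The members and gene lists were chosen with earlier results of these data known. The text names all members, S100 relatives that passed the filter, direct partners (ANXA1, ANXA2, AHNAK, CACYBP, MYH9, EZR and IQGAP1), genes that overlap a member (4 more with at most 62 counts in all libraries, over S100A6, S100A11 and S100A13, are not named), and up to 4 called genes per other list. Of the marker lists, TP63, CD68, VIM and TMPRSS2 are given with their tests. A few further genes (IL1A, S100PBP, S100A8, KRT5, KIAA0232 and MRFAP1 among them) were named after their values were seen. Alternatives were other scaling factors and filters, robust dispersion, DESeq2, limma voom, limma on log2 of the deposited normalised signal plus 1, a replicate block, a term for or removal of libraries, a length and GC correction, thinning and a threshold of 0.01. Promoter windows came from RefSeq (GRCh38.p14). Figures were drawn with matplotlib 3.10.9.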

Additional observations from a re-analysis of the deposited data

How the results depend on the processing

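The fall of S100P was called in all 22 alternatives, and 0 members were called higher except for 1 without a filter on low counts and 0 to 3 with 1 library left out, the 3 without SAM 2. The log2 fold change of S100A11 turned negative without control 1 (-0.03) or SAM 3 (-0.078), and after the length and GC correction, both without (-0.025) and with (-0.027) the replicate block. The cause was not tested. The other 9 members kept their direction in every alternative that gave a value. S100A3 had no value when counts were thinned to the smallest library.

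The number of tested genes called moved more. Higher and lower genes numbered 1402 and 1341 without a filter, 446 and 508 without control 1 and SAM 2, 1256 and 1246 with a term for these libraries, 1571 and 1335 after the length and GC correction, and 126 and 127 at an adjusted p under 0.01. With 1 library left out, 61 to 1661 were higher and 78 to 1572 lower. With the replicate number as a block, 440 genes were higher, and S100P stayed called. Same-numbered libraries correlated in their deviations from the group means at -0.21, -0.47 and 0.16, so the numbers were not taken to pair the samples.

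Among the lists, the median of fused and envelope genes (2 tested) was 0.33, 0.47 with a minimum of 1 CPM, 0.66 when thinned, and 0.19 to 0.52 with 1 library left out. The median of S100 partners was -0.088 without control 1 and SAM 2, 0.058 after the length and GC correction, 0.059 when the replicate block was added to it, and -0.12 to 0.0083 with 1 library left out. That of other EF-hand proteins was -0.015 with library totals, 0.065 without control 1 and SAM 2, and -0.10 to 0.056 with 1 library left out, and that of genes near the S100 cluster -0.019 to 0.13 with 1 library left out.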

Other observations

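Other EF-hand proteins of the cytosol, which share the calcium-binding fold with S100 proteins, showed 1 call among 21 tested genes. Of all tested genes 10.4% were called. The median log2 fold change of these EF-hand genes was 0.02. The gene called was EFHD2, a calcium-binding regulator of actin, which rose from 137 to 197 CPM on average (log2 fold change 0.52, SE 0.09, n = 3, edgeR adjusted p = 0.0114). All SAM libraries lay above all controls, as they did in 17.9% of all tested genes. Leaving out control 1, 2 or 3 or SAM 1 ended the call (highest adjusted p = 0.0902). Those fits called 0.909 to 1.61% of all tested genes. None of the calmodulin genes was called.

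Of 22 S100-fused and envelope genes of the epidermal differentiation complex, 2 passed the filter, IVL, which encodes involucrin, and SPRR1A, and neither passed the test (edgeR adjusted p = 0.237 and 0.820). The mean of IVL was 0.991 CPM in the control group and 1.44 CPM after SAM. In all, 89 other genes lie between S100A10 and S100A1 on chromosome 1 or within 250000 bases of S100P, and 47 of them had 0 counts. Of the 14 tested, 1 rose, S100A9, and none fell, beside 10.4% of all tested genes called.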
